A study of Mus musculus with 36 samples.

Results

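The 10 immediate early genes Fos, Fosb, Jun, Junb, Jund, Egr1, Atf3, Ier2, Zfp36 and Dusp1 were taken by name, without a threshold on their values, from the 31102 genes of the single-cell tables. All 10 had UMIs (unique molecular identifiers, each standing for 1 captured transcript) in all 26 Drop-seq glands. Immediate early genes are transcribed soon after a stimulus by factors that the cell already holds, such as serum response factor and CREB, without new protein synthesis. Fos and Jun family proteins pair to form AP-1, a transcription factor that acts on later genes, while Zfp36 and Dusp1 dampen the response, by destabilizing short-lived mRNAs and by dephosphorylating MAP kinases. The enzymatic release of cells from a tissue is known as a stimulus for these genes, so their levels in captured cells were set against glands that had not been dissociated.

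The study compared tumor-bearing with control submandibular salivary glands of the mouse. Double-mutant mice carried gain-of-function β-catenin and loss of function of Bmpr1a, both brought about by Cre under the keratin 14 promoter (K14-Cre) of basal epithelium. Control mice carried K14-Cre and a Cre-inducible EYFP reporter in the R26 locus, which the cross for the double mutants also brought in, and all mice had a C57BL/6 background. Drop-seq, which captures single cells in droplets with barcoded beads, covered 6 control and 7 double-mutant glands at each of 2 ages, postnatal day 40 (P40) and P90, and every group held males and females. CITE-seq, which reads antibody tags beside the RNA, covered 2 control and 2 double-mutant glands at P70. By label, the CITE-seq controls were 1 male and 1 female, and both CITE-seq double mutants were female. The authors added a low amount of human HEK cells to these suspensions as a spike-in, and removed cells of human origin for their own analysis. For bulk RNA-seq 1 undissociated gland a genotype was lysed, a control at P70 that its label calls wild type and a double mutant at P100, both female. The glands for single cells were digested with collagenase, hyaluronidase and dispase and sorted for cells without DAPI, and the Drop-seq cells were fixed in methanol while the CITE-seq cells were used fresh.

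After filtering, 23346 of 26987 Drop-seq barcodes and 2535 of 3095 CITE-seq barcodes remained, with 650301 to 6994504 UMIs per Drop-seq gland and 670322 to 2205865 per CITE-seq gland, and the bulk samples held 34515744 and 34729551 counted reads. Of 25861 distinct barcodes kept, 20 occurred in more than 1 library, and no pair of libraries shared more than 1. Sex-linked genes went against the label in double-mutant P40 replicate 1, double-mutant P90 replicate 5 and CITE-seq control replicate 1. Levels are given as CPM (counts of UMIs scaled to a common total) of a gland, or of a cell type within a gland. A UMI counts a transcript once whatever its length, so these levels can be compared between genes. In whole glands, fewer cells of a type and less RNA per cell cannot be told apart.

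The bases just upstream of 5 members are shown because they hold elements through which rapid induction of such genes is classically described. They are RefSeq sequence of GRCm38.p6, end where the gene begins, and read 5′ to 3′ on the gene's strand. Capitals mark matches, on either strand, to the cyclic AMP response element TGACGTCA, its core TGACG (contained in the full element), the Jun-type element TGACATCA, the EGR element GCGGGGGCG or the CArG box of serum response factor.
Fos, chr12:85473740-85473889, plus strand: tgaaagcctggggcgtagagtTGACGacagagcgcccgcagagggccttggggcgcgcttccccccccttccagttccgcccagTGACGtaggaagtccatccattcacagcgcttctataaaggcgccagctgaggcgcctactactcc
Fosb, chr7:19310046-19310195, minus strand: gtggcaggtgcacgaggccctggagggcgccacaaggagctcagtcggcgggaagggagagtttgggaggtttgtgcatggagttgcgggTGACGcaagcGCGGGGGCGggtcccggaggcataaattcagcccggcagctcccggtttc
Jun, chr4:95052223-95052372, minus strand: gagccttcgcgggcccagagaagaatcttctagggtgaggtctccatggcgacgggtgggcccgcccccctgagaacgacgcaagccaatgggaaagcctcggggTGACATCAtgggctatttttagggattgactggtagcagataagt
Zfp36, chr7:28379256-28379378, minus strand: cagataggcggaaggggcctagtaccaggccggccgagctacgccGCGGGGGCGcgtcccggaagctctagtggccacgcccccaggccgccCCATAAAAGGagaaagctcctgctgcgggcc
Dusp1, chr17:26508520-26508622, minus strand: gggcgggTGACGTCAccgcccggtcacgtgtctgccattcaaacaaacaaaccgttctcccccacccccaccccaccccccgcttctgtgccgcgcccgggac

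Windows from 250 bases before to 50 bases after the start were held for 8 members. No window was held for Egr1 and Ier2, so no element was searched for in these. The core occurred in 5 of them (Fos, Fosb, Junb, Atf3 and Dusp1) and in 20.81% of all 32851 windows. The EGR element occurred in 2 (Fosb and Zfp36) against 2.91% of all windows, and the full cyclic AMP element in 1 (Dusp1) against 1.79%. The Jun-type element was found in 1 (Jun) against 3.62%, the CArG box in 1 (Zfp36) against 1.63%, and the AP-1 site TGACTCA in 0 against 5.2%. A match describes the letters of the window only. Of the members not shown, Junb (chr8:84976909-84978748), Jund (chr8:70697739-70700616) and Ier2 (chr8:84661331-84662852) lie on chromosome 8, Egr1 on chromosome 18 (chr18:34859823-34864984) and Atf3 on chromosome 1 (chr1:191170296-191218039, GRCm38, GENCODE).

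All 10 members stood above the undissociated gland of the same genotype, in 12 of 12 control and 14 of 14 double-mutant Drop-seq glands. The measure was the ratio of pooled Drop-seq CPM to bulk TPM (the bulk counts scaled likewise, after division by gene length), both over the genes shared by symbol. Of the genes with at least 1 TPM, 64.1% of 8492 in control and 85.6% of 7727 in the double mutant were also more than 2-fold above bulk, with median ratios of 2.65 and 4.51. Only 6 members in control and 7 in the double mutant reached 1 TPM. Over all genes with bulk counts, 63.0% of 19204 in control and 84.0% of 18998 in the double mutant passed 2-fold. The median ratios were then 2.79 and 5.64. The count of 10 of 10 has to be read against those shares. With 1 bulk gland a genotype no test was made, and the intervals cover the counting error of the bulk reads only. Age, library chemistry and counting also differed between the bulk and single-cell samples, and their parts in a ratio cannot be told apart from that of cell capture.

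Fos, the classical partner of Jun in AP-1, had 34 bulk reads (0.368 TPM) in the control gland and a pooled level of 1219 CPM in control Drop-seq cells, a ratio of 3315 (95% interval 2372 to 4787). Single control glands ranged from 2208 to 6781 times the bulk level. In the double mutant, 42 bulk reads (0.458 TPM) stood against 1709 CPM, a ratio of 3732 (2761 to 5179). The size of these ratios rested on the scaling, and all 10 members had lower ratios in both genotypes on 3 other scales. The control ratio of Fos was 1236 with bulk not divided by length, 932 on totals without mitochondrial genes and genes over 1%, and 1237 after centring on the median gene, and in the double mutant these values were 1413, 756 and 824. In bulk Fos was a gene of few reads, while in the Drop-seq glands it ranked 26th of all genes by mean CPM.

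Fosb, a Fos paralog, rested on 17 and 7 bulk reads, and its ratios of 2256 (1409 to 3872) in control and 8979 (4358 to 22332) in the double mutant had the widest intervals. Egr1, a zinc finger factor induced through serum response factor, had 48 and 55 bulk reads and ratios of 1119 (844 to 1518) and 1839 (1413 to 2441). Atf3, a stress-induced partner of Jun proteins, had a ratio of 1257 (956 to 1688) in control and 462 (391 to 550) in the double mutant, where bulk held 138 reads against 51 in control. Together with Fos these were the 4 members with the fewest bulk reads and the highest ratios in control.

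Jun, with 581 bulk reads in control, had ratios of 204 (188 to 222) and 226 (209 to 244). Junb, its paralog, had 254 (216 to 301) and 263 (230 to 301). Jund, the family member known to be present in resting cells, had the most bulk reads of the 10 (764 and 864) and the lowest ratios, 19.1 (17.8 to 20.5) and 30.6 (28.6 to 32.7). On the same 3 other scales its control ratio was 5.82, 5.37 and 7.12. With the main scaling its control ratio was still at percentile 98.4 among genes with at least 1 TPM.

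Dusp1, a MAP kinase phosphatase, had ratios of 110 (93.6 to 130) and 96.8 (86.5 to 109). Zfp36, which promotes decay of AU-rich mRNAs, had 101 (89.1 to 115) and 127 (113 to 143). Ier2, a nuclear protein of the early response, had 66.5 (58.8 to 75.6) and 104 (91.4 to 120). Dusp1, Zfp36 and Ier2, like Jun and Junb, thus lay between Jund and the group of Fos, Fosb, Egr1 and Atf3. In pooled CITE-seq cells, which were not fixed, Fos stood at 1372 times control bulk and Jund at 9.14 times.

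**Figure D1:**
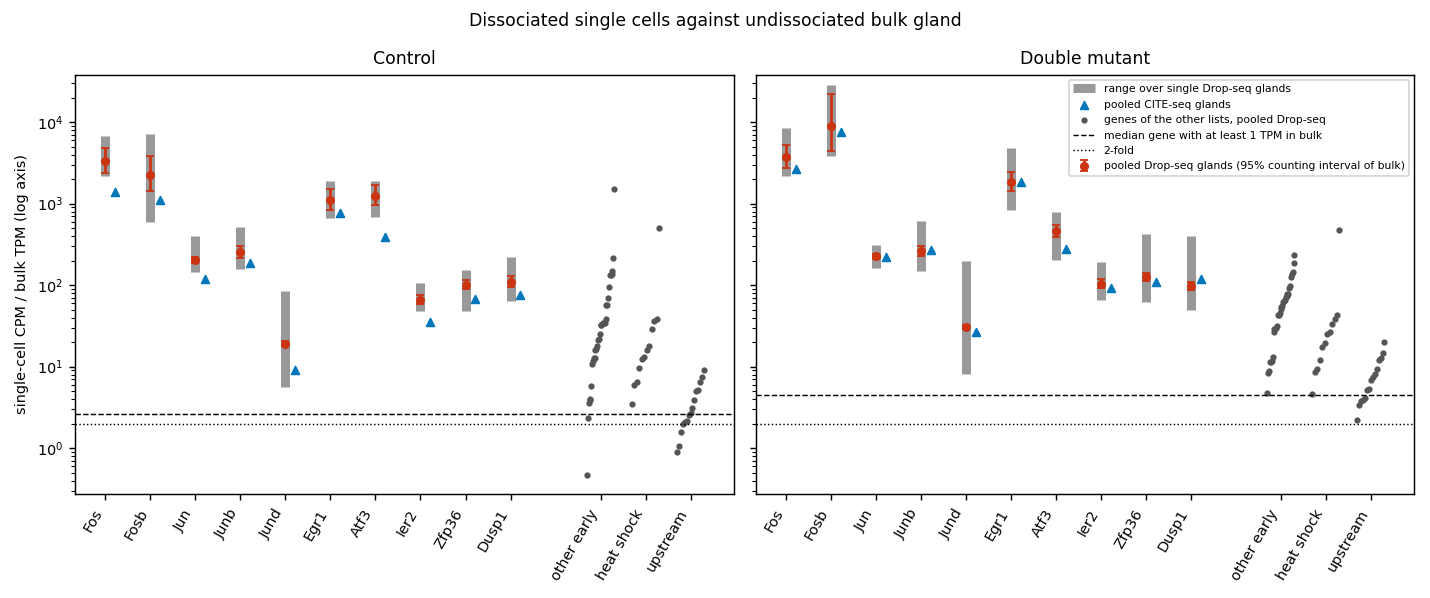
Ratio of single-cell CPM to bulk TPM (y, log axis) for the 10 members and the genes of 3 other lists, control left and double mutant right; red points are pooled Drop-seq glands with the 95% counting interval of bulk, grey bars the range over single glands, blue triangles pooled CITE-seq glands and small dots single genes of the lists. In control the pooled ratios run from 19.1 for Jund to 3315 for Fos, above the dashed line of the median gene at 2.65.

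Other genes of the early response were also above bulk. In control, 32 of 33 listed genes passed 2-fold with a median ratio of 32.0, and only Egr3, with 3 bulk reads and a ratio of 0.467, did not. In the double mutant 32 of the 32 with bulk counts passed, with a median of 52.7. The 12 heat shock genes all passed in both genotypes, with medians of 14.7 and 22.4. Hspa1a, an inducible Hsp70 gene, reached 503 in control, where its bulk level was under 1 TPM. Among the 11 heat shock genes with at least 1 TPM in control bulk, the highest ratio was 38.0. Kinases and factors upstream of the members (Srf, Creb1 and others) lay near the median gene, with 11 of 15 passing and a median of 2.70 in control, and 15 of 15 and 6.88 in the double mutant.

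Summed over the 10 genes, members took 0.334% to 1.59% of all UMIs of a Drop-seq gland (median 0.689%). The medians were 0.427% in control P40, 0.627% in control P90, 0.695% in double-mutant P40 and 0.864% in double-mutant P90 glands. By mean CPM over 26 glands, Fos (1718) and Jun (1160) were highest and Jund (311) and Dusp1 (299) lowest.

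**Figure D2:**
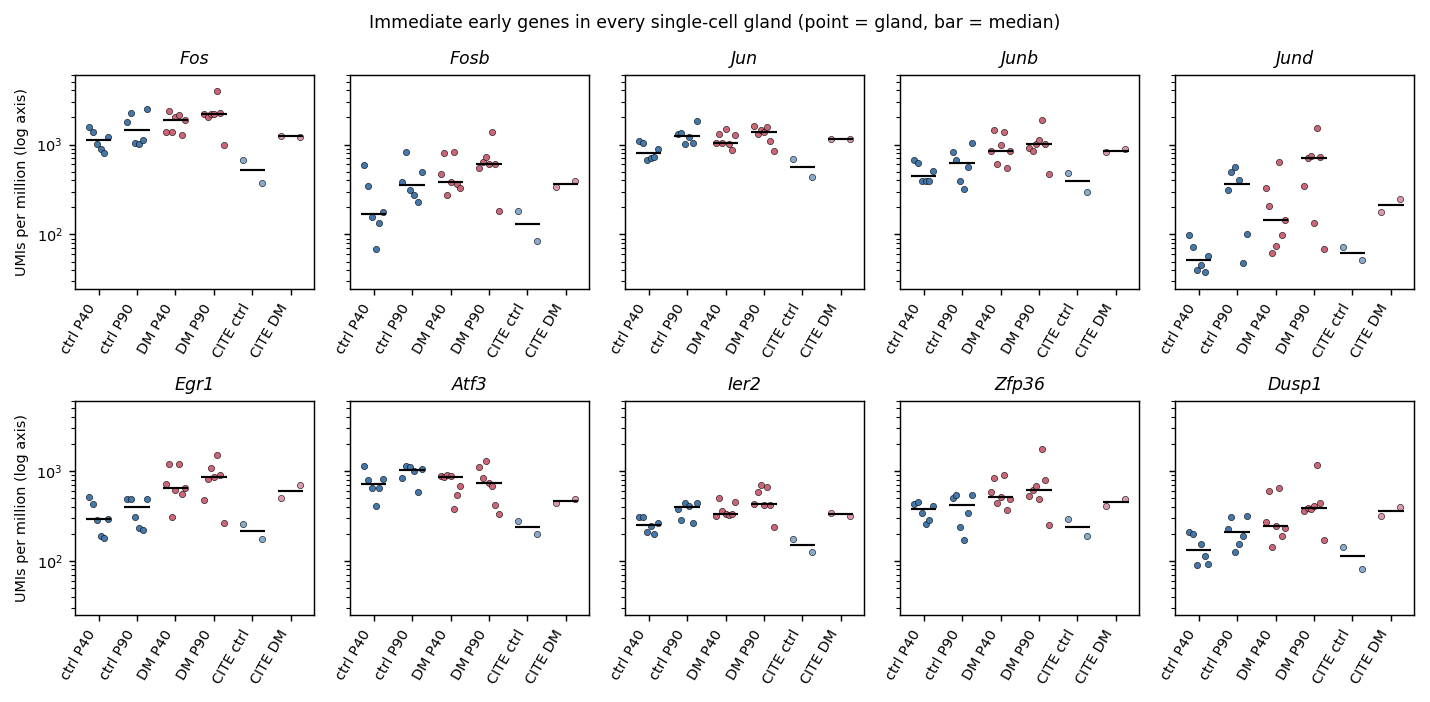
CPM (y, log axis) of each member in every single-cell gland, by assay, genotype and stage (points are glands, bars medians, ctrl is control and DM double mutant). Jund spreads from 37.8 to 564 CPM among Drop-seq controls, while Atf3 covers much the same range in control (408 to 1144) and double-mutant Drop-seq glands (330 to 1295).

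Between genotypes, 3 of the 10 members differed in a test over 26 glands that scaled each gland by TMM, a factor set by the bulk of the genes, and 22% of all 10488 genes tested did (14.4% higher). Egr1 and Dusp1 were higher and Atf3 was lower in double-mutant glands. All p-values measure only the spread between these glands. The scale mattered: without TMM the median of all genes moved from 0.02 to 0.68 on the log2 scale, and 8 members were then called, all higher, without Jun and Atf3, as were 53.2% of all genes.

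Egr1 had a lowest, median and highest level of 181, 297 and 510 CPM in the 12 control glands and 262, 762 and 1504 CPM in the 14 double-mutant glands. Egr1 rose by 0.52 ± 0.13 on the log2 scale (SE, edgeR quasi-likelihood test, adjusted p = 0.00783) and by 1.23 on library totals. The groups overlapped, but the double-mutant median lay above the highest control gland. The call held without each of the 26 glands in turn, but not with batch as a factor (0.57, adjusted p = 0.0543) or with no filter on low counts (0.46, adjusted p = 0.18).

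Dusp1 ran through 90.5, 173 and 313 CPM in control and 143, 367 and 1147 CPM in double-mutant glands. It rose by 0.40 ± 0.14 (adjusted p = 0.0488). This call was lost without any of 21 of the 26 glands, and under 7 of 12 other alternative settings. Among these were the fits without the 2 libraries whose sex genes go against their labels (0.34, adjusted p = 0.0907) and with batch as a factor (0.35, adjusted p = 0.21). The call remained without double-mutant P90 replicates 3 or 7, double-mutant P40 replicate 3, or control P40 replicates 2 or 4.

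Atf3 ran through 408, 812 and 1144 CPM in control and 330, 781 and 1295 CPM in double-mutant glands, so its levels overlapped throughout. With TMM it fell by 0.71 on the log2 scale (SE 0.23, adjusted p = 0.0286), and with batch as a factor by 1.11 (adjusted p = 0.0214). On library totals the difference was -0.15 (adjusted p = 0.54). The call was lost without double-mutant P40 replicate 2 (adjusted p = 0.0507) or double-mutant P90 replicate 6 (0.052), and without the 2 libraries whose sex genes go against their labels (-0.66, adjusted p = 0.0614).

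The other 7 members did not pass. Fos had medians of 1158 CPM in control and 2070 CPM in double-mutant glands and a log2 difference of -0.07 ± 0.14 with TMM, which turned to 0.57 (adjusted p = 0.0175) on library totals. Ier2 turned likewise from -0.15 ± 0.16 to 0.48 (adjusted p = 0.0142). For Junb the values were 0.16 ± 0.12 and 0.84, for Fosb 0.20 ± 0.19 and 0.87, for Zfp36 0.11 ± 0.14 and 0.83, and for Jund 0.53 ± 0.35 and 1.40. Jun, at -0.34 ± 0.17 with TMM and 0.24 on totals, passed on neither scale over whole glands. The direction for Fos, Jun and Ier2 thus depended on the scaling.

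**Figure D3:**
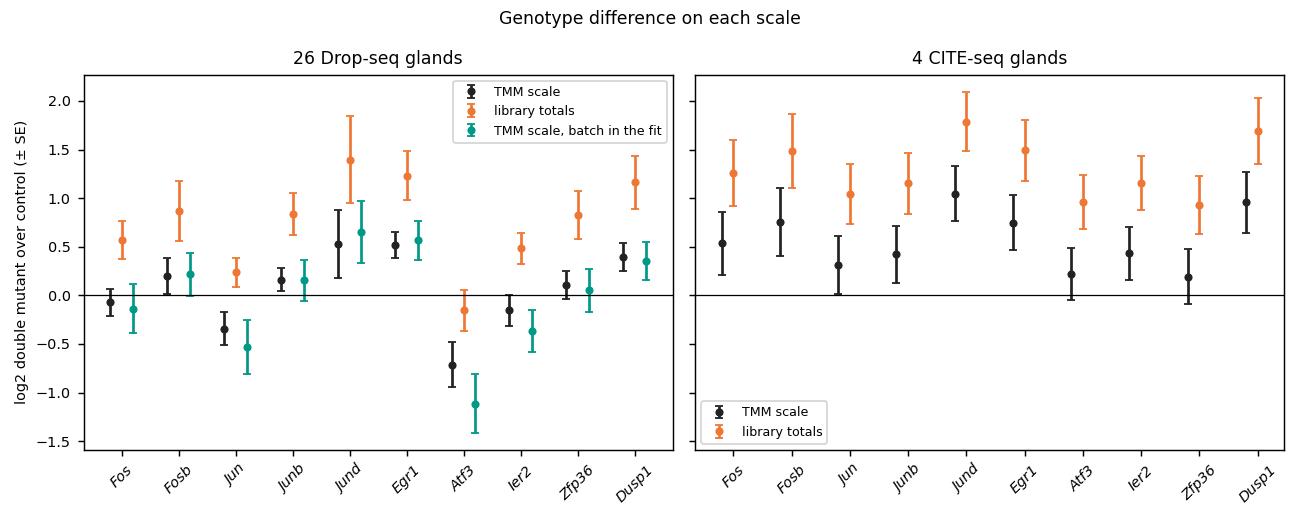
Log2 difference of each member, double mutant over control, with its SE, in 26 Drop-seq glands (left) and 4 CITE-seq glands (right), with TMM (black), on library totals (orange) and, in Drop-seq, with TMM and batch in the fit (green). Egr1 in Drop-seq stands at 0.52 with TMM and 1.23 on totals, and Atf3 at -0.71 and -0.15.

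Acinar cells, whose secretory transcripts fill much of a library, moved with genotype. Acinar-like cells made up a median 45.2% of cells in control P40, 35.0% in control P90, 24% in double-mutant P40 and 12.9% in double-mutant P90 glands, and the median share of macrophage-like cells was 2.34%, 9.11%, 7.78% and 21.4%. With acinar-like, luminal Dcpp1+-like and Gm12873-led cells left out, 3 members were called, Egr1 at 0.32 (adjusted p = 0.0404), Atf3 at -0.93 (0.0119) and Jun at -0.58 (0.0234), beside 23.5% of 8375 genes. Jun was thus called there and Dusp1 no longer was (0.21, adjusted p = 0.242). Within the 5 batches that held both genotypes, unscaled CPM was higher in double-mutant glands in 5 of 5 for 8 members, in 4 of 5 for Jun and in 2 of 5 for Atf3. The share of all genes higher in as many batches was not computed. On library totals the median of all genes was also higher in double-mutant glands.

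With age, Jund was the member that changed in controls. Its 6 control P40 glands held 37.8, 40.3, 45.2, 58.2, 73.2 and 99.4 CPM. The 6 control P90 glands held 315 and 497 CPM in batch 7, 564 and 407 CPM in batch 8, and 48.5 and 101 CPM in batch 9. Both glands of batch 9 lay at the P40 level or just above it, and the other 4 P90 glands lay above every P40 gland. Jund rose by 2.18 ± 0.50 on the log2 scale (adjusted p = 0.00984), 4.53-fold, against 10.9% of 9099 genes called. With the replicate number as a block the call was lost (1.72 ± 0.51, adjusted p = 0.0630), although same-numbered glands deviated together in only 4 of 6 pairs. The P40 and P90 controls came from separate batches, so batch and age cannot be told apart there.

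**Figure D4:**
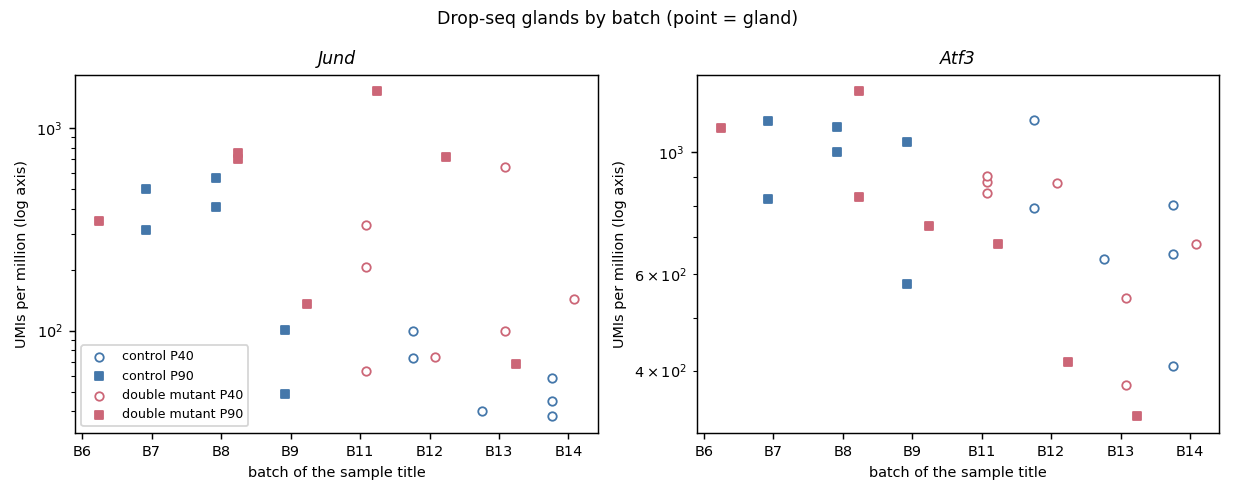
CPM (y, log axis) of Jund and Atf3 in each Drop-seq gland by batch (x), with control in blue, double mutant in red, P40 as open circles and P90 as filled squares. The Jund controls of batches 7 and 8 lie at 315 to 564 CPM and all other controls at 37.8 to 101 CPM.

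The remaining 9 members passed in neither direction in controls. In double-mutant glands, P90 against P40, 0 of 10 members passed in edgeR and in DESeq2, as did 0% of 9857 genes in edgeR. At an unadjusted edgeR p under 0.05 there was 1 member, Jund, with a difference of 1.31 ± 0.44 and an adjusted p of 0.832. Its levels ran from 63.0 to 638 CPM at P40 and from 68.5 to 1523 CPM at P90, and its stage difference within 3 batches from -2.43 to 3.28. In the test of whether genotype and stage interact 0 members passed, with 0.00876% of 11420 genes called, and among double-mutant P90 glands batches 6 to 9 against 11 to 13 also gave 0 (0% of 8523 genes), with Atf3 at 1.07 ± 0.52.

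In CITE-seq, where both genotypes were run as 1 batch, no member's control and double-mutant glands overlapped in CPM. The share of all genes without such overlap was not computed. On library totals the median of all genes was also higher in double-mutant glands. Fos was at 673 and 370 CPM in control and 1233 and 1228 CPM in double-mutant glands. Egr1 was at 256 and 175 against 503 and 688 CPM, and Dusp1 at 144 and 80.2 against 317 and 394 CPM. With TMM, 1 member was called, against 13.7% of 10058 genes. Jund, at 73.2 and 52.6 against 179 and 249 CPM, rose by 1.04 ± 0.28 (adjusted p = 0.0440).

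The Jund call was lost without any 1 of the 4 CITE-seq glands, and without a cluster of 189 cells led by CH25-626J19.2 (adjusted p = 0.0517). On library totals all 10 members were called, with differences of 0.93 to 1.79 where the median of all genes was 0.73 and 30.9% of genes were called. Dusp1 (0.96 ± 0.31, adjusted p = 0.076) and Egr1 (0.75 ± 0.29, adjusted p = 0.113) came next with TMM.

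The other early response genes moved in part. Between genotypes in Drop-seq 9 of 32 tested rose and 3 fell, among them Ctgf, a secreted matrix protein (2.28 ± 0.52), and Dusp2, a MAP kinase phosphatase (1.77 ± 0.43). Their median was 0.41, that of the members 0.13 and that of all genes 0.02, and 22% of all 10488 genes tested were called. Of 12 heat shock genes 0 rose and 2 fell, the mitochondrial chaperones Hspd1 (-0.71 ± 0.19) and Hspe1 (-0.64 ± 0.22). Of 14 upstream genes 4 rose and 0 fell, led by Elk3, a partner of serum response factor (1.30 ± 0.42), and its coactivator Mkl1 (1.09 ± 0.28).

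In control glands, P90 against P40, 5 of 12 heat shock genes rose and 0 fell, led by Hspa1b (2.63 ± 0.31). Of 32 other early response genes 3 rose and 1 fell, led by the transcription factor Cebpb (3.94 ± 0.71). Of all 9099 genes tested 10.9% were called. The P40 and P90 controls came from separate batches, so batch and age cannot be told apart in these counts. In CITE-seq, 11 of 31 other early response genes and 5 of 12 heat shock genes rose in double-mutant glands and 0 fell, led by Klf2 (2.37 ± 0.45) and Hspa1b (1.46 ± 0.32). Of the upstream genes 0 of 14 passed there, and of all 10058 genes tested 13.7% were called.

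Drop-seq cells were clustered without the members and 45 other response genes, and 19 cell types with at least 10 cells in at least 5 glands were compared. A type is called after its markers with "-like". A cluster is called after its leading gene where it had too few markers, where another list had more markers among its 10 leading genes, or where those 10 held none of its own markers and at least 5 gene models or pseudogenes. The last applied to the Gm12873-led cluster, with 4 of 6 acinar markers past the limits, and in CITE-seq to the CH25-626J19.2-led cluster, with 4 of 5 proliferation markers. Whether the CH25-626J19.2-led cluster held spiked-in human cells was not tested. It was kept in the levels of the CITE-seq glands and in the order of their types. Averaged over the ranks of all 10 members by CPM, ductal Smgc+/Esp4+-like cells stood first and acinar-like cells last. These levels are shares of a type's own UMIs, so they also depend on its other transcripts. When types were ordered by level, neighbouring types differed by more than the larger of their SDs over glands in 0 of 18 steps for 8 members and in 1 of 18 for Jun and Egr1. Sorting 19 types itself keeps these steps small, so the counts cannot tell a gradient from separate groups.

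In the 11 types of CITE-seq the order was another one, with endothelial-like cells first, ductal Smgc+/Esp4+-like cells sixth (ranks 3 to 8 over the members), acinar-like cells next to last and the CH25-626J19.2-led cluster last. Fixation, age and the types found also differed between the assays. The basal-like cells of CITE-seq, led by Pla2g2a, Ptn and Gp2, also passed 4 of 7 markers of cancer stem cell-like cells. Its ductal Smgc+/Esp4+-like cells also passed 4 of 5 luminal Clu+ markers. A name shared by the assays therefore need not stand for the same cells. The levels of types given next are those of Drop-seq, except where stated.

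The leading type differed between members. Fos was highest in ductal Smgc+/Esp4+-like cells at 5525 ± 2051 CPM (SD, n = 25 glands) and lowest in acinar-like cells at 742 ± 517 CPM (n = 26). Jun was highest in the same ductal cells at 3265 ± 835 CPM and lowest in T/NK-like cells at 576 ± 468 CPM. Fosb was highest in basal-like cells at 1772 ± 670 CPM. In CITE-seq Fos was highest in endothelial-like cells at 4447 CPM (4 glands), against 2510 CPM in the ductal Smgc+/Esp4+-like cells, and Jun in basal-like cells at 4900 CPM (3 glands).

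Junb was highest in T/NK-like cells, at 2741 ± 1034 CPM (n = 15), where Jun was lowest. In CITE-seq Junb was at 3021 CPM in T/NK-like and 3538 CPM in endothelial-like cells, and Jun was lower in acinar-like (410 CPM) and CH25-626J19.2-led cells (287 CPM) than in T/NK-like cells (732 CPM). Jund was highest in Ig-producing-like cells at 1141 ± 1005 CPM, with only 6 glands and an SD close to the mean. Egr1 led in myoepithelial-like cells at 2758 ± 1415 CPM, 13.3 times its acinar level.

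Atf3 had the widest range, from 3692 ± 1200 CPM in ductal progenitor-like to 113 ± 134 CPM in Ig-producing-like cells. Ier2 (1851 ± 869 CPM) and Zfp36 (1787 ± 868 CPM) were highest in a cluster led by the mucin Muc19. Dusp1 was highest in macrophage-like cells at 1016 ± 435 CPM.

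**Figure D5:**
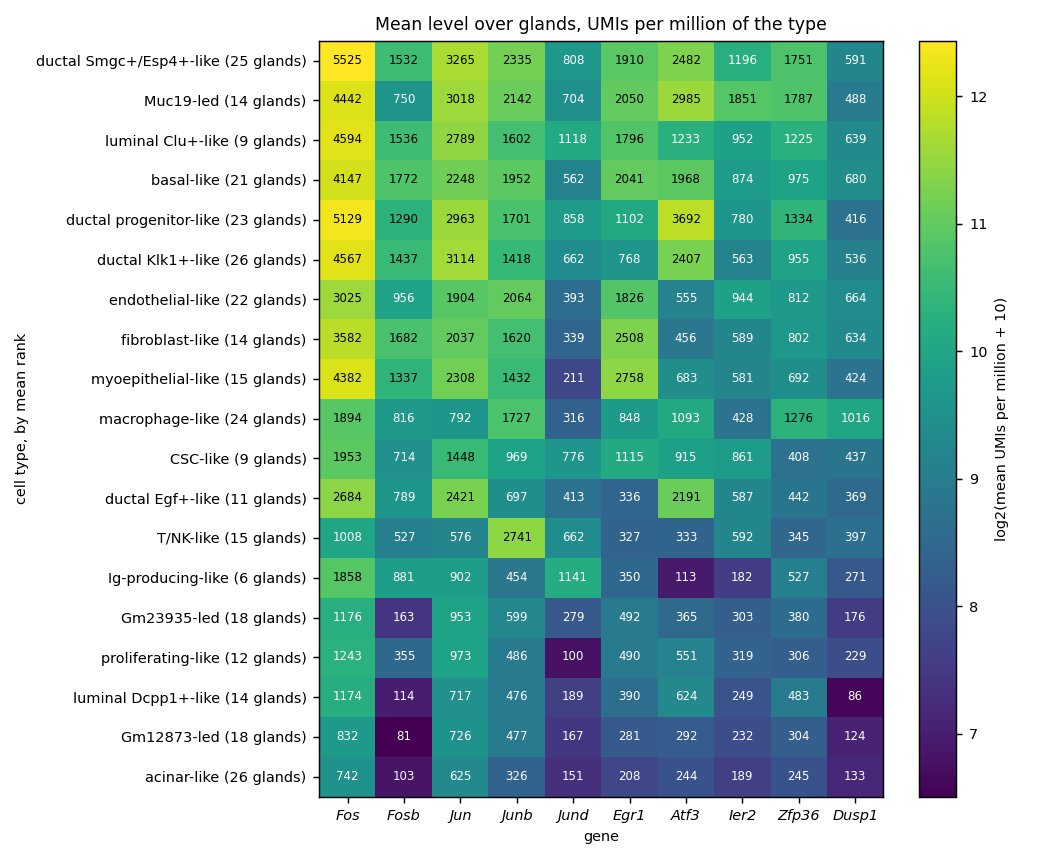
Mean CPM over Drop-seq glands of each member (columns) in each of 19 cell types (rows, ordered by mean rank), printed in the cells and colored as log2(mean CPM + 10). In these Drop-seq glands T/NK-like cells combine the highest Junb (2741) with the lowest Jun (576), and acinar-like cells have the lowest Fos (742).

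Each type was then tested against the other types of the same glands. Of 190 pairs of member and type, 107 were called (61 higher, 46 lower), where 32% of all gene and type pairs were. On library totals 156 were called, with 50.1% of all gene and type pairs. In 48 pairs the member was higher and in 27 lower on both scales, and 12 pairs turned direction, 8 of them in luminal Dcpp1+-like cells, so the pairs named next are those called in the same direction on both scales, except where stated.

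Ductal Smgc+/Esp4+-like cells were higher for 9 of 10 members, all but Dusp1, with 14.6% of their genes called higher, and Atf3 stood at 1.11 ± 0.13 and Zfp36 at 0.98 ± 0.11. The Muc19-led cluster was higher for 7 (20% of genes), with Ier2 at 1.26 ± 0.15, and ductal Klk1+-like cells for 7 (28.2%), with Atf3 at 1.38 ± 0.13. Ductal progenitor-like cells were higher for 5 (23.4%), most for Atf3 at 1.45 ± 0.14. The Gm23935-led cluster, led by noncoding RNAs, was lower for 8, with 19.5% of its genes called in either direction. Acinar-like cells, last in the order by CPM, had only 3 members called with TMM, 2 lower and 1 higher. On library totals all 10 were called there, and the 1 higher member turned direction.

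The immune types named here, T/NK-like and macrophage-like cells, showed mixed signs. T/NK-like cells (38.2% of genes called) were higher for Junb (0.62 ± 0.15) and lower for 5 members, among them Jun (-2.23 ± 0.19) and Fos (-2.02 ± 0.20). Macrophage-like cells (55.1% called) were higher for Junb (0.31 ± 0.11) and the feedback genes Dusp1 (1.26 ± 0.11) and Zfp36 (0.66 ± 0.12) and lower for Jun (-1.37 ± 0.12) and Fos (-0.70 ± 0.13). Egr1 was higher in myoepithelial-like (1.59 ± 0.17), fibroblast-like (0.99 ± 0.17) and endothelial-like cells (0.88 ± 0.14), while Atf3 was lower in endothelial-like cells (-0.95 ± 0.18). Luminal Clu+-like and proliferating-like cells had 0 of 10 members called with TMM in edgeR, with 13% and 12% of genes called, and 10 of 10 on totals, with 25.1% and 38.3% called.

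Between genotypes within a type, 6 of 137 tested pairs were called in 14 types, against 2.5% of all gene and type pairs. Basal-like cells, in which the K14 promoter is active, held 3 of them, with 10.2% of their genes called. Dusp1 ran through 152, 273 and 807 CPM (lowest, median, highest) in 8 control glands and 434, 683 and 1816 CPM in 13 double-mutant glands, and rose by 1.38 ± 0.25 (adjusted p = 0.000689). Egr1 there ran through 546, 1277 and 1780 CPM and 1736, 2302 and 4049 CPM and rose by 1.03 ± 0.23 (adjusted p = 0.00435). Fos ran through 1797, 2676 and 4015 CPM and 2535, 4895 and 7976 CPM and rose by 0.81 ± 0.25 (adjusted p = 0.0390). The genotypes overlapped least for Egr1, where the lowest double-mutant gland lay just under the highest control gland. The basal-like cells of the 2 genotypes came largely from different clusters: 90.1% of control cells lay in cluster 15, led by Smoc2 and Ucma, and 46.4% of double-mutant cells in cluster 5, led by Wif1 and Sostdc1, which held no control cell. These differences can therefore not be told apart from a change in the kind of basal-like cell.

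In acinar-like cells Egr1 rose by 0.96 ± 0.24 (adjusted p = 0.0270), from a median of 97.3 CPM in 12 control glands to 218 CPM in 14 double-mutant glands, with 1.6% of genes called. In ductal Smgc+/Esp4+-like cells Dusp1 rose by 0.86 ± 0.24 (adjusted p = 0.0451), from a median of 427 to 589 CPM, with 3.39% called. In macrophage-like cells Jun fell by 0.80 on the log2 scale (adjusted p = 0.0109) with 10.1% called, but stood at -0.03 (adjusted p = 0.897) on library totals. The other 5 calls were also made on library totals. Egr1 and Dusp1 in basal-like cells were called under all 6 alternatives. Fos there was lost with at least 30 cells a gland (adjusted p = 0.0502), as was Jun in macrophage-like cells (0.152). Egr1 in acinar-like cells was lost at the finer clustering (0.0938) and without the 5% of cells with the most UMIs (0.0784). Dusp1 in ductal Smgc+/Esp4+-like cells was lost with at least 30 cells (0.0969), with RLE size factors (0.0506) and at the finer clustering. Whether a genotype difference itself varied between types was not tested.

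The members varied together across glands. Over 26 glands, Pearson's r of log2 CPM for the 45 pairs of members had a median of 0.72 and a range from -0.02 to 0.93, with 37 pairs over 0.5. Atf3 stood apart, with a median r of 0.23 to the other members. Over the 19 cell types the median was 0.73. The points share library totals, batch and cell make-up, so these values are descriptions. The same values over pairs of all genes were not computed, so whether the members varied together more than other genes was not tested. The genes most like the members' joint profile over the 26 glands, of 3477 ranked, were Fnip1 and Dctn2 (r = 0.951 each), Ezr and Ngdn (0.943 each), Snrpb (0.940), Clk1, Baz1a and Nfe2l2 (0.939 each), Sf3b1 (0.938) and Wsb1 (0.937). None of these genes was in the lists of other early response, heat shock or upstream genes.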

How the data were processed

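The deposited single-cell files hold UMI counts per gene and barcode, made by the authors with Drop-seq tools against mm10 with GENCODE genes and added Cre and EYFP sequences. The deposited bulk files hold read counts per gene symbol, made by the authors with STAR and featureCounts; counting ignored strand. The CITE-seq antibody tags were not used here. Cells with at least 100 genes and at most 15% mitochondrial UMIs (in CITE-seq also at most 2500 genes) were kept. No doublet caller was run, and results without the 5% of cells with the most UMIs in each gland were computed as an alternative.

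Cells were clustered with scanpy 1.11.5 (2000 variable genes, 30 components, 20 neighbours, Leiden resolution 1.0) with 55 response genes held out. A cluster took a name only with at least 3 listed markers at 2-fold or more and in 10% or more of its cells. It kept no name where another list had more markers among its 10 leading genes, where these held none of its own markers and at least 5 gene models or pseudogenes, or where it was shallow and led by none of its markers; these limits were set after the data were seen. Summed UMIs of each gland, or of each type in a gland, were tested with edgeR 4.0.16 (quasi-likelihood, filterByExpr, TMM, R 4.3.3), with Benjamini-Hochberg adjustment over all genes and a threshold of 0.05. Cell types were compared with TMM factors from each type's sum over glands, because factors from single sparse sums had failed on simulated data. On simulated data that comparison recovered 200 of 200 genes changed 4-fold and made 80 false calls among 4415 genes, 7 of them over 1 on the log2 scale, with unchanged genes at a median of 0.13; among 282 unchanged genes as abundant as the members 3 were false calls. DESeq2 1.42.0 was an alternative. CPM and TPM were computed here from the deposited counts. Named were all 10 members, up to 4 called genes with the largest change per other list and comparison, and the 10 genes most correlated with the members over glands. The members and lists were chosen with earlier results of these data known.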

Additional observations from a re-analysis of the deposited data

Results flagged for a closer look

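Dixon's criterion was applied to 40 combinations of a member and a Drop-seq group of 6 or 7 glands. In 3 of them a gland stood apart, where chance gives about 1 in 20 for a single test. The members varied together over glands, so these 3 are not independent of each other. All 3 values came from 1 gland, double-mutant P90 replicate 5 (batch 11), which had 408 UMIs per cell in the median, 5.26% mitochondrial UMIs and sex-linked genes against its label. Its Fos level was 3886 CPM, with the other 6 glands of its group at 1000 to 2237 CPM. Its Zfp36 level was 1727 CPM, with the others at 250 to 794 CPM. Its Dusp1 level was 1147 CPM, with the others at 171 to 443 CPM. The part of depth or RNA quality in these values was not tested.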

How the results depend on the processing

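Between genotypes in Drop-seq 3 members were called. The count was 1 with no filter on low counts, 1 without the 2 libraries whose sex genes go against their labels, 1 with batch as a factor, 8 on library totals, and 1 to 3 without each gland in turn (1 without double-mutant P40 replicate 2 or double-mutant P90 replicate 6). On totals Fos (0.57) and Ier2 (0.48) turned direction. In CITE-seq the 1 call became 2 with no filter, 0 with DESeq2, 0 with all barcodes, 0 without the CH25-626J19.2-led cluster, 10 on totals, and 0 to 2 without each gland; the cause was not tested. Library totals, the cell-class exclusions and the single-sum TMM were chosen after seeing the data.

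The replicate numbers did not pair the glands, with correlations of same-numbered deviations over 0.1 in 5 of 6 pairs between genotypes at P40, 0 of 6 at P90, 4 of 6 between the control ages (-0.152 to 0.563) and 3 of 7 between the double-mutant ages. With the replicate block the genotype count stayed at 3, and the control age count went from 1 to 0 (Jund 1.72, adjusted p = 0.0630).

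Of the pairs of member and type, 107 were called, and 69 in control glands alone, where Egr1 in basal-like cells stood at -0.16. Within types, 6 pairs became 11 on totals and 3 with at least 30 cells (Egr1 and Dusp1 in basal-like, Egr1 in acinar-like cells). All 10 members stayed more than 2-fold above bulk in every setting, with a lowest ratio of 5.37 in control and 6.20 in the double mutant. Limits are 1 bulk gland a genotype, 2 CITE-seq glands a genotype and few bulk reads for Fos, Fosb, Egr1 and Atf3.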
